A study of Equus caballus with 2 samples.

Results

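The locus described here is the protamine gene cluster of horse chromosome 13 (ECA13), with PRM1 (protamine 1) and TNP2 (transition protein 2). It was measured in total sperm RNA of 2 stallions of normal fertility, with 1 library per stallion. Fresh ejaculates had been passed through a density gradient to remove somatic cells and immature sperm, no treatment was applied, and there was no second condition. Mapped reads had been clustered by the authors into expressed loci, here called tags, and the expression value of a tag is its average coverage (AC). From its name, AC is read here as the mean read depth over the bases of a tag. The study describes it as a normalized number of transcripts. All tags overlapping chr13:33098000-33317000 of the horse draft assembly EcuCab2 were taken, and these were 12 of the 19257 tags in all. The 12 tags lay between 33198245 and 33216705, and no tag lay in the flanks of about 100 kb on either side. They are numbered from 1 to 12 in the order of position, with PRM1 in tag 5 and TNP2 in tags 11 and 12.

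One AC value was deposited per tag for both stallions. In the study's own list of tags, 2 of the 12 could be read with a value for each stallion, and in both the deposited value was the higher one and came from the first stallion. The values of each stallion stand only in that list and are not given here, so that AC is printed without a replicate error. The read counts behind the values were not used here, and no difference between tags was tested. Tags of one locus share the same 2 libraries and are not replicates. If AC is a mean per base, it can be set side by side between tags of different length. Weighting AC by tag length rests on the same reading. The stallion behind a value is known here for only 2 of the 12 tags, however. A ratio between tags may therefore set the libraries of the 2 stallions against each other.

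Protamines are small arginine-rich proteins that replace the histones in the elongating spermatid and pack the DNA of the sperm head. Transition proteins bind the DNA in between, after most histones have left and before the protamines are in place. PRM1 encodes the protamine found in all mammalian sperm and TNP2 encodes a basic, zinc-binding transition protein. In the RefSeq gene order of a later horse assembly, TB-T2T, a lncRNA gene, PRM2 and PRM3 follow PRM1 before TNP2, with RMI2 and a further lncRNA gene on the PRM1 side and SOCS1 on the TNP2 side. PRM2 encodes the second protamine, and PRM3 encodes a small acidic protein of the spermatid cytoplasm in spite of its name.

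The deposited sequence of the PRM1 tag is shown first, since the reading frame can be read in it directly. The tag began 99 bases before an ATG. From this ATG the frame ran over 106 coding bases to a GT, followed by an intron of 78 bases and by 47 coding bases that ended with a TAG. The splice sites were taken as the first GTAA after the ATG and the next CAG with at least 8 pyrimidines in the 10 bases before it. The 3 pieces lie on the plus strand at chr13:33206307-33206412, chr13:33206413-33206490 and chr13:33206491-33206537. Capitals mark arginine codons in the coding parts, of which the last codon of exon 1 is completed in exon 2, and the splice dinucleotides in the intron.
PRM1 exon 1 coding part: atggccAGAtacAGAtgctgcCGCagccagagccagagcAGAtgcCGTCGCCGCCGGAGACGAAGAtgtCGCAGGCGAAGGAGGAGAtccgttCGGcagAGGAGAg
PRM1 intron: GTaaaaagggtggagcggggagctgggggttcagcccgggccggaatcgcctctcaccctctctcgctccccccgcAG
PRM1 exon 2 coding part: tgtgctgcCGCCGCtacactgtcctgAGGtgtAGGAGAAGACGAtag

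The spliced PRM1 frame had 50 codons, of which 27 (54%) coded for arginine and 7 for cysteine. None coded for lysine, glutamate, aspartate or histidine. Of the arginine codons, 15 were AGA or AGG and 12 began with CG. Without splicing, the frame from the same ATG met no stop in the intron and had 76 codons.

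A second arginine-rich frame was found between PRM1 and TNP2, in the tag at chr13:33208962-33209331. It is shown because its tag is listed by the study only as lying downstream of PRM1. The frame began with the ATG at 33209072 and was open over 86 codons to the end of the tag, at which 2 bases were left. Capitals mark arginine codons at chr13:33209072-33209329, plus strand.
Arginine-rich frame: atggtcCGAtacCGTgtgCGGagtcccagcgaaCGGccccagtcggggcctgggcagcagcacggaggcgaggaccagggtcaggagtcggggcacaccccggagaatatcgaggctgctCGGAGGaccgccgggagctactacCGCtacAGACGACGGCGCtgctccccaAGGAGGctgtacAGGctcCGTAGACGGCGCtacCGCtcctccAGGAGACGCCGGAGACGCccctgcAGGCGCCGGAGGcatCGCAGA

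Of its 86 codons, 31 (36%) coded for arginine. They were spread unevenly, with 6 in the first 43 codons and 25 in the remaining 43. Here 12 arginine codons were AGA or AGG and 19 began with CG, so that the balance lay the other way than in PRM1. On the other strand of the same tag a longer frame of 93 codons held 4.30% arginine.

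An acidic frame was found further on, in the tag at chr13:33211027-33211438, and is shown because it lacks what marks the former frames. It began at 33211084 and ended with a TGA at 33211353. Capitals mark glutamate and aspartate codons, plus strand.
Acidic frame: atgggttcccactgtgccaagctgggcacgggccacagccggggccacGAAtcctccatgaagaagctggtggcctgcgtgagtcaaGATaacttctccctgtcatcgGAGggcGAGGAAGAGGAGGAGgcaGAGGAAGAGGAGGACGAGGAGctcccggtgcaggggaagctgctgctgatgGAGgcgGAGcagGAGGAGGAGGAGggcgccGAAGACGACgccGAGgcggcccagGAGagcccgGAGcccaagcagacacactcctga

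This frame had 89 codons. Of these, 23 coded for glutamate and 4 for aspartate, together 30.3%, and 1 coded for arginine. The longest unbroken run of acidic codons had 7 codons.

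The TNP2 frame lay in the first of the 2 tags listed as TNP2 cDNA, at chr13:33215022-33215459. It began at 33215085 and was open over 125 codons to the end of the tag. The first 300 bases of the frame, chr13:33215085-33215384 on the plus strand, are shown with arginine and lysine codons in capitals, since these carry the basic charge of the protein.
TNP2 frame: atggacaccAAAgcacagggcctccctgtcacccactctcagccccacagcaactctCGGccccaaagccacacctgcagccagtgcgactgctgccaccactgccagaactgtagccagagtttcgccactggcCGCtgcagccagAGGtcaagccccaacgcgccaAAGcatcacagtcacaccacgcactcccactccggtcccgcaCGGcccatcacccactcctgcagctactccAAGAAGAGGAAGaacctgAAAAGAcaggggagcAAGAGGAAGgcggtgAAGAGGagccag

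In the TNP2 frame 13 codons (10.4%) coded for arginine and 10 (8%) for lysine. The basic codons were gathered toward the end, with 5 in the first 62 codons and 18 in the next 63. The codons for cysteine and histidine, the residues that can hold zinc, had the opposite order, with 15 in the first 62 codons and 5 in the next 63. Serine was the most frequent of the residues counted, with 19 codons (15.2%).

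**Figure D1:**
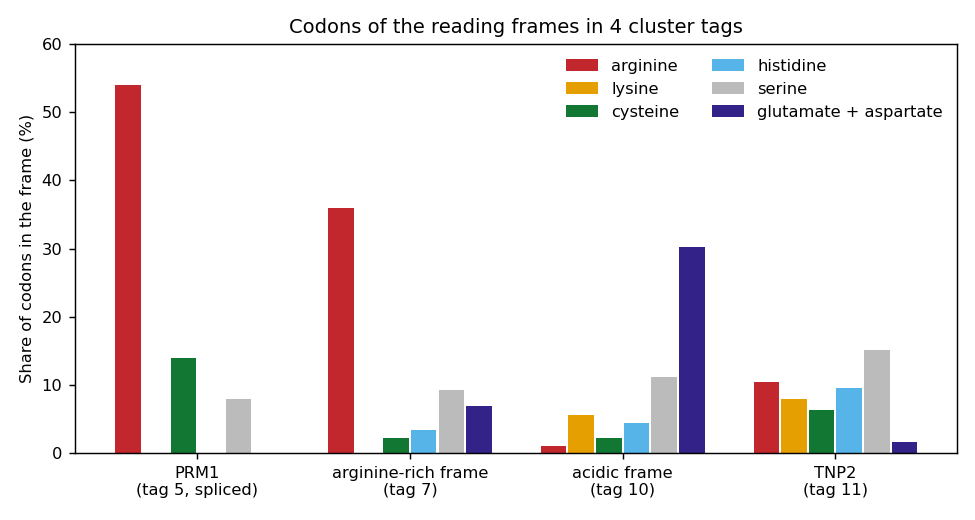
Share of codons (%) that code for arginine, lysine, cysteine, histidine, serine, or glutamate and aspartate in the frames found in 4 cluster tags, 1 bar per residue. Arginine makes up 54% of the PRM1 frame and 36% of the frame in tag 7, against 10.4% in TNP2 and 1.12% in the acidic frame of tag 10, where glutamate and aspartate reach 30.3%.

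Frames this rich in arginine were rare among the tags. An ATG frame of at least 30 codons, on either strand and without splicing, was present in 3657 of the 6386 tags with 90 bp or more. Per tag, the highest arginine share had a median of 9.09%. It reached 35% in 8 tags (0.219%), and the PRM1 tag and the tag at 33208962 were 2 of these 8. The PRM1 tag counted here with its unspliced frame, in which the arginine share was 38.2%. At a limit of 40% neither cluster tag was left among the 3 tags that passed. The 6 others lay elsewhere in the genome and had AC of 9.25 to 21.17, whereas the PRM1 tag had AC of 1730.25 and the tag at 33208962 had 34.15. In 4 of the 6 others at least 50% of the bases were repeat-masked. Acidic frames were counted at a lower limit and over glutamate and aspartate together, so that the counts are not directly comparable. For arginine alone, 30% was reached in 20 tags. A share of glutamate and aspartate of at least 30% was found in 54 of the 3657 tags (1.48%), and in 1 tag of the cluster. The limits of 35% and 30% were set after the values had been seen.

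The parts of the genes named for each tag are those the study lists. The single tag over the PRM1 exons, tag 5 at chr13:33206208-33207592, was 1385 bp long and had AC of 1730.25. It was the only one of the 12 tags with AC of at least 100, the limit the study uses for very high expression. Of all 19257 tags, 1598 (8.30%) reached this limit when it was applied to the deposited values. A single tag out of 12 is a share of the cluster close to that of all tags.

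The 2 tags listed as TNP2 cDNA had AC of 68.48 (tag 11, 438 bp) and 30.69 (tag 12, 399 bp, chr13:33216307-33216705). The PRM1 tag was 25.3 times as high as tag 11 and 56.4 times as high as tag 12. Between the TNP2 tags 847 bases had no tag.

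From PRM1 toward TNP2, the 5 tags 6 to 10 that lie between them had AC of 7.2, 34.15, 39.19, 10.93 and 33.52. By the later gene order a lncRNA gene, PRM2 and PRM3 also lie in this stretch, and the tags were not assigned to them. For tag 10 the study's list gives another value than the deposited one, which is used here, and its place in the order below depends on this. Tag 7 holds the arginine-rich frame and tag 10 the acidic one. In the later gene order PRM2 likewise precedes PRM3, but neither frame was matched to a protein sequence. Tag 8 (chr13:33209441-33209827) lies 109 bases after tag 7 and had a like AC. Tags 6 (chr13:33208269-33208363, 95 bp) and 9 (chr13:33210585-33210872, 288 bp) were the lowest of the 5. In tag 6 no ATG frame of 30 codons was found. Those in tag 9 were all open at an end of the tag, with 53 codons and 5.66% arginine in the longest on the plus strand.

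The 4 tags upstream of PRM1 had AC of 12.4, 7.67, 14.36 and 15.65. Tag 1 (chr13:33198245-33198302, 58 bp) and tag 2 (chr13:33202982-33203030, 49 bp) were short and stood apart from the rest. Tag 3 (chr13:33203671-33203901, 231 bp) was separated by 12 bases from tag 4 (chr13:33203914-33206028), the longest of the cluster with 2115 bp. Tag 4 ended 179 bases before the PRM1 tag, and these bases were in no tag.

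**Figure D2:**
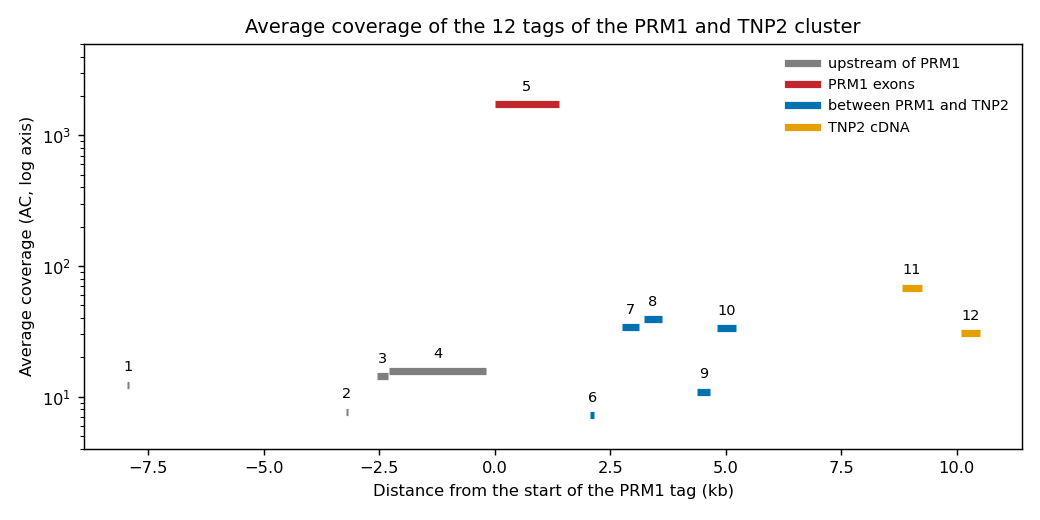
Average coverage (AC, log axis) of the 12 cluster tags against the distance from the start of the PRM1 tag (kb). Each horizontal bar spans 1 tag to scale and is coloured by the part of the gene. The PRM1 tag stands at 1730.25, the next highest is TNP2 tag 11 at 68.48, and the upstream tags lie between 7.67 and 15.65.

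Ordered by AC, the 6 highest tags were the PRM1 tag, both TNP2 tags and tags 7, 8 and 10, from 30.69 upward. All 4 upstream tags and tags 6 and 9 followed, from 15.65 down to 7.2. The median AC was 13.4 upstream of PRM1, 33.5 between PRM1 and TNP2 and 49.6 over the TNP2 tags. Without tag 10, whose value differs between the sources, the median between PRM1 and TNP2 was 22.5 and that of the cluster 15.7. The median of all 12 tags was 23.2, against 14.6 for all 19257 tags and 12.5 for the 1023 tags of ECA13, and 7 of the 12 tags lay above 14.6.

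When AC was multiplied by the length of each tag, the PRM1 tag held 95% of the cluster. The upstream tags held 1.49%, the tags between PRM1 and TNP2 1.80% and the TNP2 tags 1.68%. The largest of the other tags by this measure were tag 4 with 1.31%, through its length, and tag 11 with 1.19%. The 12 tags were 1.17% of the tags of ECA13 and held 24.8% of its AC-weighted bases. Their share over the whole data set was 0.135%. That total includes very high tags that the study matched to ribosomal RNA, so it is not a share of the mRNA.

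The PRM1 tag reached far past the part that encodes the protein. Coding bases were 11% of its length. The polyadenylation hexamer AATAAA, the usual signal for cutting and tailing an mRNA, occurred once on the plus strand, at 33206668 to 33206673 and 130 bases after the stop codon. A further 919 bases, 66.4% of the tag, followed this hexamer. AC is a single value for the whole tag, so that the coverage before and after the hexamer cannot be told apart.

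On the plus strand AATAAA was also found in tag 8, at 33209703 and 33209731, and in tag 10, at 33211422, where 11 bases of the tag followed it. Tags 2 and 4 upstream of PRM1 held it as well. On the opposite strand, as TTTATT, it was found in tags 4 and 5 only. Of all 1012 tags of 250 to 500 bp, 6.32% held the hexamer on the plus strand and 13.4% on either strand. Of the 6 cluster tags of this length, 2 held it, and both on the plus strand. Among 166 tags of 1000 to 2000 bp, the class of the PRM1 tag, 36.7% held it on the plus strand. No claim on the strand of the RNA follows, since double-stranded cDNA had been made without a record of the strand.

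Tags covered 6227 of the 18461 bases of the cluster (33.7%). Between the PRM1 tag and tag 11 lay 7429 bases, of which 1552 (20.9%) were covered by the 5 tags. The longest uncovered stretch there, of 3583 bases, separated tag 10 from the first TNP2 tag. The tags were long for this data set. Their median length was 378 bp against 45 bp for all tags, and 9 of the 12 had at least 200 bp, as did 12.1% of all tags. Tag 2 was the only one shorter than the 50-base read.

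The sequence differed along the cluster. Repeat-masked bases, written in lower case in the deposited sequences, made up 53.4% of tag 1, all of tags 2 and 3 and 60.5% of tag 4. Of the 8 tags from PRM1 onward none was masked over 50% or more of its length, 5 had no masked base, and the highest share was 20.6% in tag 12. Of all tags, 27.2% were masked over 50% or more, as were 17% of tags of at least 200 bp and 20.1% of ECA13 tags. GC content ranged from 40.8% in tag 2 to 69.2% in tag 7, the tag with the arginine-rich frame. The median was 57.1% for the 8 tags from PRM1 onward and 51.5% for the 4 upstream tags. It was 52.2% for all tags of at least 200 bp and 53.9% for the tags of ECA13.

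**Figure D3:**
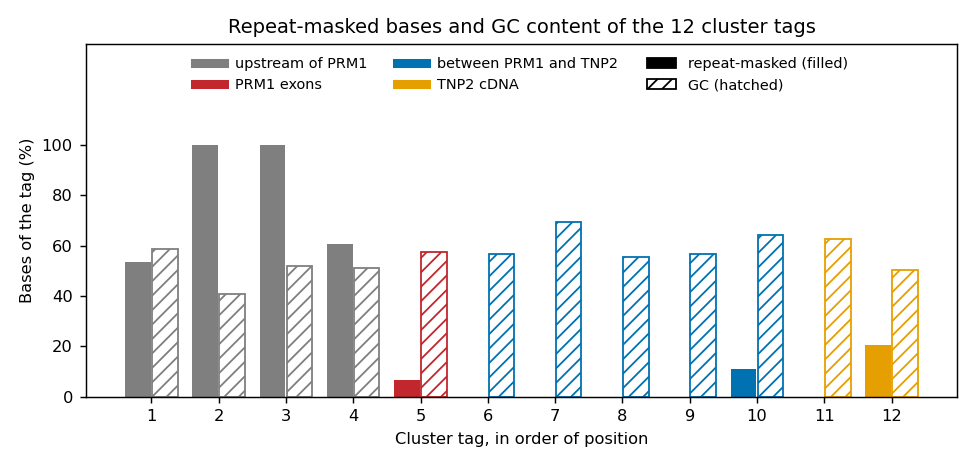
Repeat-masked bases (filled bars) and GC content (hatched bars) of the 12 cluster tags, in percent of the bases of each tag and in order of position. The 4 upstream tags are masked over 53.4% to 100% of their length, the tags from PRM1 onward over at most 20.6%.

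Each tag was aligned with all other tags to look for copies that could share its reads. The genome itself was not searched, so a copy without a tag would not be seen. No alignment of at least 40 bp and 80% identity extended over 50% or more of a cluster tag. The PRM1 tag, both TNP2 tags and tag 7 had no alignment with any other tag. Tag 10 aligned with 3 tags over at most 44 bp, and tag 4 with 1 tag over 110 bp at 80% identity. The cluster tags did not align with each other, the arginine-rich frames included.

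The surroundings of the cluster were empty over a long distance. The nearest tag before it lay at chr13:33076298-33076323, 121921 bases away, was 26 bp long, wholly masked and had AC of 8.79. The nearest after it lay at chr13:33327427-33327460, 110721 bases away, was 34 bp long and had AC of 7.61. Of the 1022 intervals between neighbouring tags of ECA13, 113 were at least as long as the first of these distances and 127 (12.4%) at least as long as the second, so that intervals of this size were not rare on this chromosome.

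Since the flanks of about 100 kb held no tag, the comparison was widened to 500 kb on each side after the data had been seen. This held 17 tags, 3 before and 14 after the cluster, which were 26 to 624 bp long. The lowest of them had AC of 5.81, the median was 12.5 and the highest had 24.12. Of the 12 cluster tags, 6 lay above the highest of the 17, and the other 6 lay within their range. Without tag 10, 5 of 11 lay above. Weighted by length, AC was 405 per covered base in the cluster, 25.9 without the PRM1 tag, and 15.9 in the surrounding tags.

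**Figure D4:**
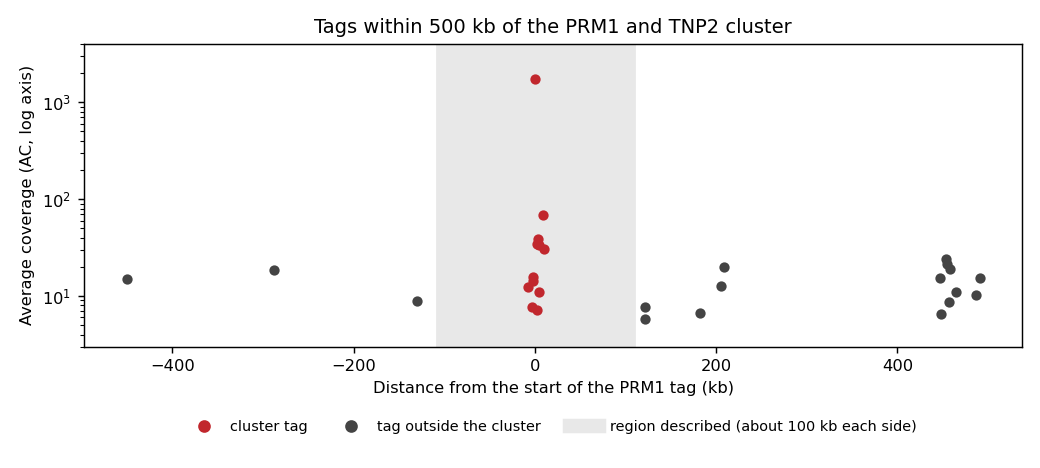
Average coverage (AC, log axis) of every tag within 500 kb of the cluster against the distance from the start of the PRM1 tag (kb). The shaded region holds the 12 cluster tags (red) and no other tag. The 17 tags outside (dark) lie between 5.81 and 24.12.

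A region of this length with 12 or more tags was uncommon. The 32 placed chromosomes were divided into 10798 windows of 219001 bases, of which 191 (1.77%) held at least 12 tags. Tags less than 10 kb apart were also joined into groups on these chromosomes. Of 13055 groups, 83 had at least 12 tags, and 7 of the 83, the protamine cluster among them, had no other tag within 100 kb on either side. By AC-weighted bases the protamine cluster was the first of the 83 and the 26th of all groups. The limit of 12 is the cluster's own number of tags, and the 100 kb is the flank already found empty. The cluster's place among the 7 was therefore fixed by these limits. The PRM1 tag alone held 95% of its AC-weighted bases.

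Within ECA13 the PRM1 tag ranked 3 by AC. The higher ones were a 68 bp tag at chr13:25602409-25602476 with AC of 4197.03 and a 29 bp tag at chr13:11958842-11958870 with 2123.86, and the next below it had 1047.89. By AC-weighted bases it was first of the 1023 tags. Of 22 ECA13 tags with 1000 bp or more it had the highest AC, and the next had 313.85.

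Among all tags the PRM1 tag was 139th by AC, so that 0.717% of the tags were higher. Among 245 tags with 1000 bp or more, PRM1 ranked 12th. Of these 12, 3 lay on ECA1 with AC of 28775.53 to 104507.3, 1 was the PRM1 tag and the others lay on the unplaced contigs or the mitochondrial genome. On the placed chromosomes the next tag of this length below PRM1 had 591.55. A further 5 placed tags of 500 bp to below 1000 bp had higher AC than PRM1, from 5994.0 to 155205.5. The libraries were made from total RNA, and the study matched the tags with 104507.3 and 155205.5 to ribosomal RNA. The ranks over all tags are therefore not ranks among mRNAs. The tag of TNP2 with AC of 68.48 was exceeded by 12% of all tags and was 64th on ECA13.

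**Figure D5:**
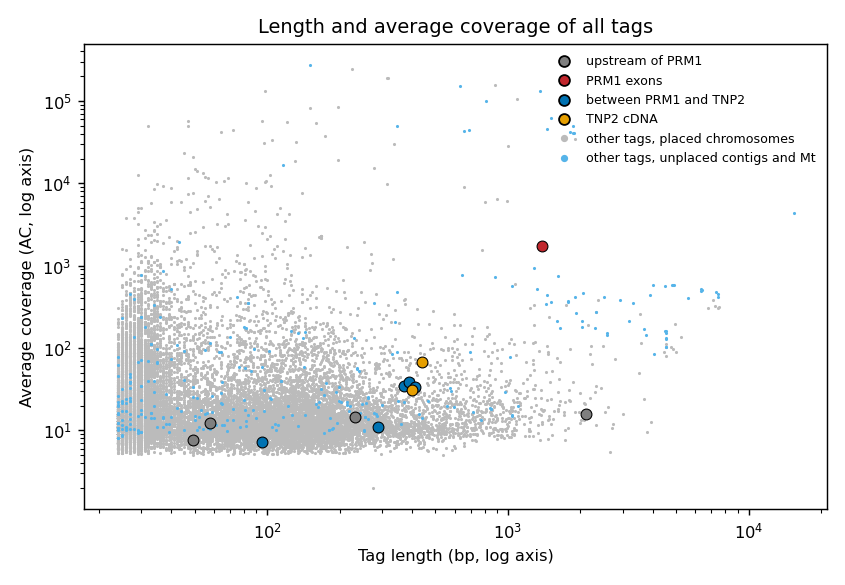
Length (bp, log axis) and average coverage (AC, log axis) of all 19257 tags, with the 12 cluster tags as large points coloured by the part of the gene. The PRM1 tag (1385 bp, 1730.25) is exceeded by 3 tags of 1000 bp or more on the placed chromosomes, all on ECA1, and by 5 placed tags of 500 bp to below 1000 bp, and the other cluster tags lie among tags of like length.

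The spread of AC within the locus differed from that in the other genes whose tags the study listed by position. In PKM2, a glycolytic enzyme gene with 9 tags on ECA1, the highest tag was 1.24 times the second and held 22.7% of the AC-weighted bases. For CRISP3, the gene of a cysteine-rich secretory protein, 3 tags on ECA20 were listed, none over an exon. The highest of them was 3.17 times the second and held 60.1% of the AC-weighted bases. In the protamine cluster the highest tag, over PRM1, was 25.3 times the second, over TNP2. That ratio is between tags of different genes, whereas the PKM2 and CRISP3 ratios are each between tags listed for the same gene. The cluster held 10.2 times the AC-weighted bases of the PKM2 tags and 135 times those of the CRISP3 tags. These differences were not tested.

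Of the 20 listed genes of the exchange of histones for protamines, 4 lie in this locus by the RefSeq gene order (PRM1, PRM2, PRM3 and TNP2). None of the 16 genes of the late spermatid list does. The locus was chosen for PRM1 and TNP2, so these counts follow from that choice and are not a result of the tags. The other genes of both lists, TNP1 included, and the markers of leukocytes, epithelium, testis somatic cells and early germ cells were not placed on the tags and were not analysed here. A part of RNA from other cells was not tested with these tags.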

How the data were processed

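Per the methods of the study, cDNA was primed with random hexamers and read on the SOLiD platform in single-end reads of 50 bp. The authors aligned the reads to EcuCab2 with NovoalignCS, shortened unaligned reads and tried them again, removed reads with several similarly scoring alignments, and clustered and linearly normalized them with the EXP pipeline. The deposited values are a coverage signal (AC), 1 per tag for both stallions. For all 3029 tags that could be compared with the study's list, the higher of both stallions' values was the one deposited. The depth per tag is unknown.

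Tags were taken by position, and their gene parts are those of the study's list. Frames, hexamers, masked bases and GC were read from the deposited sequences with Python 3.11.15 and Biopython 1.88, and similarity with blastn 2.17.0 (E-value up to 1e-05). In 2000 simulated tags, 200 of 200 planted arginine-rich frames were found. The rule named all cluster tags and the nearest tag on each side. Outside the rule, the tags of ECA13 above PRM1 were named with their values known. The planned naming of the 3 highest flanking tags had none to name. The region, the lists and the comparisons were chosen with earlier results of these data known. No test was made.

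Alternatives were other flanks, tag lengths, joined or unmasked tags, AC limits, weights and windows. Translated alignment with horse proteins and the gene and marker lists could not be run, because no protein sequences were used here.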

Additional observations from a re-analysis of the deposited data

How the results depend on the processing

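No tag lay in the flanks with 50 kb on each side, 6 with 200 kb and 17 with 500 kb. The median AC of the cluster was 1.85 times that of the 17 tags within 500 kb. It was 2.86 times with tags masked over under 50% of their bases, and AC per covered base was 25.5 times as high, or 1.63 times without the PRM1 tag. Without the PRM1 tag, or without tag 10, the ratio of medians was 1.25. With tags of at least 50 or 100 bp, or with tags within 100 bp joined, it was between 2.23 and 2.24. With AC of at least 50 there were 2 very highly covered cluster tags and with 200 there was 1. The PRM1 tag was 55th of all tags by AC times length and 123rd by AC without the unplaced contigs and the mitochondrial genome. Windows shifted along the chromosomes gave 1.65% with at least 12 tags. Arginine shares of at least 30% and 40% were met by 20 and 3 tags, of which 2 and 0 lay in the cluster. The 500 kb flank, leaving out tag 10, the weighted ratio without PRM1 and these shares were chosen after seeing the data.

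Leaving out each stallion was not run, since the deposited file holds 1 value per tag for both and the values of each stallion, listed elsewhere by the study, were not used as results. No paired analysis was possible because there is 1 group. Translated alignments and the gene lists were not run. Without counts per tag, precision cannot be given.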
